A study of Mus musculus with 18 samples.

Results

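Bone morphogenetic protein (BMP) signalling in the mouse heart was followed through 10 genes: the ligands Bmp2, Bmp4, Bmp6, Bmp7 and Bmp10, the receptors Bmpr1a, Bmpr2, Acvr1 and Acvrl1, and the co-receptor Eng (endoglin). They were chosen by gene name, with no measured value in the rule, and all 10 were found among the 34714 genes of the deposited table. The RNA came from the hearts of C57 mice, labelled wild type or KCP knockout, each after a sham operation or after TAC. TAC (transverse aortic constriction) is a banding of the aorta that makes the left ventricle pump against a raised pressure. The 18 libraries fell into 4 groups, with 4 libraries from sham and 5 from TAC hearts in wild type, and again 4 and 5 in knockout. The sources used here do not give age, sex, the time after surgery or the design of the knockout allele. The labels number the samples but do not say that each was a separate mouse, so p-values measure the spread between these samples, which may be technical. The stated purpose of the study was to learn what loss of KCP does to the heart under pressure overload.

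BMPs are secreted dimers that bind a complex of type I and type II serine/threonine kinase receptors. The type II receptor phosphorylates the type I receptor, which phosphorylates Smad1, Smad5 and Smad9, and these move with Smad4 to the nucleus to act on genes such as Id1 and Smad6. Co-receptors such as endoglin present ligand to the complex, and secreted proteins such as noggin, chordin and KCP change how much ligand reaches it. KCP (kielin/chordin-like protein, encoded by Kcp) is known as a secreted protein that enhances BMP signalling. In blood vessels Acvrl1 (ALK1) and Eng are best known as endothelial receptors for BMP9 and BMP10, and their loss underlies hereditary haemorrhagic telangiectasia.

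All levels below are in FPKM, fragments scaled to transcript length and to the library's total, and can therefore be compared between genes. All log2 changes are differences of log2(FPKM + 1) with their standard error, a scale that understates changes of genes at low levels. Adjusted p-values are from limma with Benjamini-Hochberg adjustment over the 11937 genes that reached 1 FPKM in 3 libraries or more, and a gene was called at an adjusted p under 0.05. Knockout sham replicate 2 carries a library name that joins those of replicates 3 and 4. Its values are given, but it is in no mean or test, so that knockout sham has n = 3 there.

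The targeted gene, Kcp (GRCm38 chromosome 6, 29473162 to 29508003), was low in every library. It measured 0.794, 1.43, 0.888 and 1.02 FPKM in wild-type sham and 0.985, 1.04, 1.48, 1.07 and 1.04 in wild-type TAC. In the libraries labelled knockout it measured 0.666, 0.673 and 0.655 after sham (0.624 in replicate 2) and 0.952, 0.935, 0.791, 0.637 and 0.494 after TAC. The genotypes did not overlap under either surgery, as for 15.4% of all genes tested in sham and 6.69% after TAC. Kcp was not absent from the knockout, and neither difference passed the adjusted test. Its log2 change against wild type was -0.28 ± 0.12 in sham (adjusted p = 0.301) and -0.27 ± 0.10 after TAC (adjusted p = 0.0843).

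The libraries were alike in total, between 390453 and 432264 FPKM, with 11027 to 11377 genes at 1 FPKM or more, and their depth is unknown. On the first principal component the sham libraries lay between -25.7 and -18.2, and wild-type TAC replicate 5 (1.2) and knockout TAC replicate 2 (11.4) lay nearest to them within their groups. Another split nearly followed genotype. Ndufb4c measured 35.87 to 49.42 FPKM in all wild-type libraries other than wild-type TAC replicate 5, and 4.47 to 11.16 in that library and every knockout library. In sham this split and genotype cannot be told apart. The tissue markers matched heart, with a summed level of 7 ventricular cardiomyocyte genes between 21200 and 32600 FPKM in the 17 libraries of the model. Each library holds RNA of many cell types, so fewer cells of a type and less RNA per cell cannot be told apart.

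The plainest result among the ligands was in Bmp6, which was higher in knockout than in wild-type hearts after TAC. Bmp6 (chromosome 13, 38345716 to 38500314) is a ligand made by endothelial cells among others and is best known for its part in iron balance. It was the most abundant of the 5 ligands and made up between 65.8% and 70.7% of their summed FPKM as group means. Its values were 10.1, 8.37, 11.3 and 11.5 FPKM in wild-type sham, and 10.2, 8.57, 7.52, 8.37 and 9.66 in wild-type TAC. In knockout sham it measured 11.7, 10.5 and 12.1 (11.7 in replicate 2), and in knockout TAC 12.8, 13.8, 13.3, 12.1 and 11.9. All 5 knockout TAC libraries lay above all 5 wild-type TAC libraries, while the sham groups overlapped. The means after TAC were 8.85 ± 1.05 FPKM in wild type and 12.8 ± 0.799 in knockout (SD, n = 5 each), a log2 difference of 0.49 ± 0.08 (1.4-fold, adjusted p = 0.00209). In sham the difference was 0.14 ± 0.10 (adjusted p = 0.58).

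Neither genotype alone gave a called change of Bmp6 with TAC. The log2 change was -0.20 ± 0.09 in wild type (adjusted p = 0.118) and 0.15 ± 0.10 in knockout (adjusted p = 0.229), and the test of the difference between these was not passed either (0.35 ± 0.13, adjusted p = 0.161). With wild-type sham replicate 2, the lowest of its group, left out, the wild-type change was -0.29 and passed (adjusted p = 0.0247). The genotype difference after TAC was 0.52 without wild-type TAC replicate 5 (adjusted p = 0.00249). With the Ndufb4c split as a term in the model, which rests on that one library, it was 0.37 ± 0.14 and was no longer called (adjusted p = 0.203). Within the low-Ndufb4c libraries, wild-type TAC replicate 5 at 9.66 FPKM lay below each of the 5 knockout TAC libraries. Within its own group only replicate 1 (10.2 FPKM) was higher, and a single library cannot separate the split from genotype.

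Bmp4 (chromosome 14, 46383525 to 46390669), a close relative of Bmp2 with wide roles in heart and vessel formation, was the second ligand in level. It measured 4.12, 1.92, 3.97 and 3.95 FPKM in wild-type sham and 4.58, 3.46, 2.6, 4.19 and 3.83 in wild-type TAC. The knockout sham values were 4.21, 3.27 and 4.42 (3.4 in replicate 2), and in knockout TAC 5.12, 3.9, 5.61, 5.67 and 4.73. The highest values were in knockout TAC, but its lowest library fell among the wild-type values. The log2 difference between genotypes after TAC was 0.35 ± 0.15, which did not hold after adjustment (limma adjusted p = 0.141, unadjusted 0.0312). The remaining differences were smaller: 0.10 ± 0.16 for TAC in wild type (adjusted p = 0.711), 0.27 ± 0.17 for TAC in knockout (adjusted p = 0.229) and 0.17 ± 0.18 for genotype in sham (adjusted p = 0.733). Without wild-type sham replicate 2, at 1.92 FPKM the lowest library for this gene, the change in wild type was -0.10.

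Bmp7 (chromosome 2, 172868012 to 172940321), known for its part in kidney development and studied as an antifibrotic ligand, was under 1 FPKM everywhere and was tested outside the model. It measured 0.767, 0.849, 0.635 and 0.907 FPKM in wild-type sham and 0.649, 0.501, 0.533, 0.265 and 0.663 in wild-type TAC. The knockout sham libraries gave 0.593, 0.379 and 0.476 (0.468 in replicate 2), and in knockout TAC 0.178, 0.423, 0.327, 0.438 and 0.285. Wild-type sham held the highest values, and all of them lay above all knockout sham values. Such a lack of overlap is common with so few libraries: it held for 15.4% of the genes in the model. The group means were 0.79 ± 0.118, 0.522 ± 0.16, 0.483 ± 0.107 and 0.33 ± 0.107 FPKM (SD, n = 4, 5, 3 and 5). The mean after TAC was 0.661 times that in sham in wild type (exact permutation p = 0.048) and 0.684 times in knockout (exact permutation p = 0.14). The knockout mean was 0.611 times the wild-type mean in sham (exact permutation p = 0.057) and 0.632 times after TAC (exact permutation p = 0.063). In sham 0.057 is the smallest p that 4 against 3 libraries can give in this 2-sided test. These tests were 2-sided, and over the 12 such tests made none passed after adjustment, the lowest adjusted exact p being 0.25. The genotype test in sham could not have passed at 0.05 with so few libraries, so its outcome decides nothing. With knockout sham replicate 2 included the exact permutation p between genotypes in sham was 0.029, and without wild-type TAC replicate 4 it was 0.016 after TAC, both before adjustment. Each is the smallest p that its number of libraries can give. In sham the groups lay apart without replicate 2 as well, so the lower p came with the added library. Fitted in limma with no filter on low values, Bmp7 was not called in these 4 comparisons, with adjusted p of 0.0999, 0.276, 0.311 and 0.217 in the same order.

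Bmp2 was also under 1 FPKM everywhere, and its range overlapped with that of Bmp7 in both TAC groups. Bmp2 (chromosome 2, 133552159 to 133562896), needed for the cushions from which the heart valves form, measured 0.352, 0.217, 0.302 and 0.501 FPKM in wild-type sham and 0.402, 0.171, 0.445, 0.321 and 0.389 in wild-type TAC. For knockout sham the values were 0.311, 0.311 and 0.269 (0.141 in replicate 2), and in knockout TAC 0.286, 0.543, 0.342, 0.305 and 0.207. The groups overlapped in all 4 comparisons, with ratios of means between 0.866 and 1.13 and exact permutation p between 0.74 and 0.98. Bmp10 (chromosome 6, 87428994 to 87434512), a ligand of Acvrl1 that the adult heart makes mainly in the right atrium, was listed at 0 in 17 of the 18 libraries and at 0.158 FPKM in wild-type TAC replicate 1. The 8 atrial cardiomyocyte markers had a summed level of only 10.6 to 22.7 FPKM in the 17 libraries of the model.

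**Figure D1:**
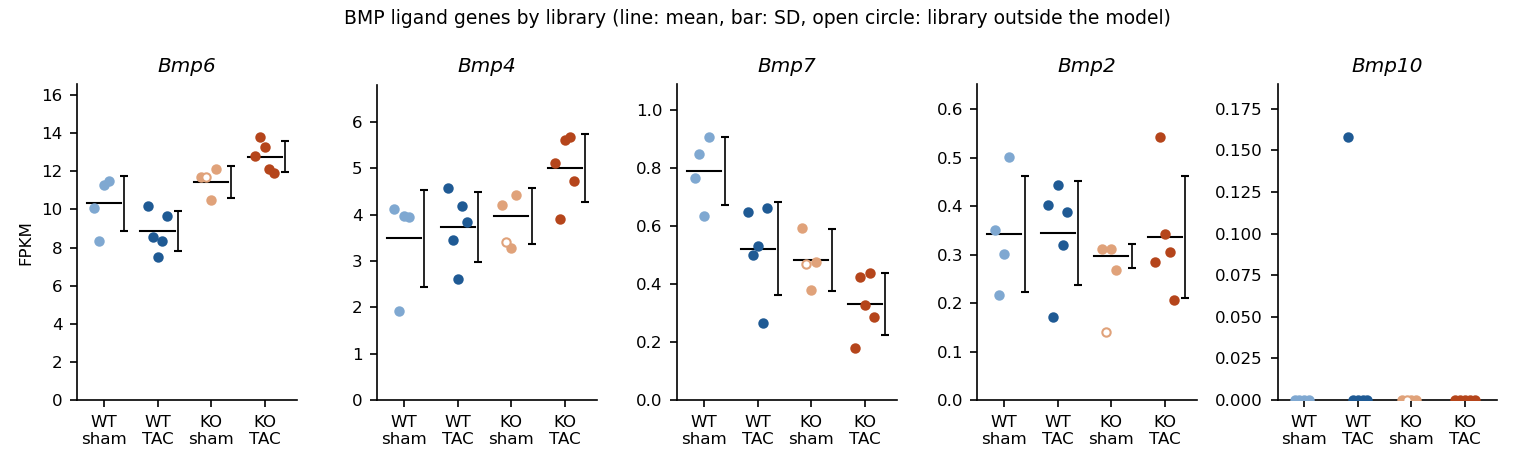
FPKM of each BMP ligand gene in each library (1 point a library, horizontal line the group mean, bar the SD, open circle knockout sham replicate 2, which is in no mean). The 5 knockout TAC points of Bmp6, from 11.9 to 13.8, lie above the 5 wild-type TAC points, from 7.52 to 10.2, and Bmp10 is at 0 in all but 1 library.

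Among the receptors, Acvrl1 rose with TAC in both genotypes. Acvrl1 (chromosome 15, 101128522 to 101145336) encodes ALK1, the type I receptor of endothelial cells. It measured 9.25, 11.5, 10.5 and 9.92 FPKM in wild-type sham and 12.1, 12.2, 14, 14.6 and 13.1 in wild-type TAC. Knockout sham measured 9.59, 9.15 and 8.59 (9.33 in replicate 2), and in knockout TAC 12.8, 13.7, 13.4, 12.5 and 11.1. Every TAC library lay above every sham library of its genotype. The means went from 10.3 ± 0.943 to 13.2 ± 1.1 FPKM in wild type, a log2 change of 0.33 ± 0.07 (1.26-fold, adjusted p = 0.00354). In knockout they went from 9.11 ± 0.499 to 12.7 ± 1.01, a log2 change of 0.44 ± 0.08 (1.35-fold, adjusted p = 0.000296). The difference between these 2 changes was 0.11 ± 0.11 (95% interval -0.12 to 0.33, adjusted p = 0.634). Genotype gave no called difference in sham (-0.16 ± 0.08, adjusted p = 0.415) or after TAC (-0.05 ± 0.07, adjusted p = 0.695).

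Endothelial markers were read beside Acvrl1. The 10 markers (Pecam1, Cdh5, Kdr, Tek, Tie1, Vwf, Emcn, Cldn5, Egfl7 and Esam), none of them near 0, summed to 281 to 301 FPKM in wild-type sham, 285 to 331 in wild-type TAC, 261 to 296 in knockout sham and 280 to 355 in knockout TAC. With TAC 1 of the 10 rose in wild type (Esam, 0.37, adjusted p = 0.00401), where 21.9% of all genes tested were called, and 3 of 10 in knockout (Esam 0.49, Pecam1 0.33 and Cldn5 1.31), where 38.8% were. Markers of other cells moved too: of 7 ventricular cardiomyocyte markers 4 fell and 1 rose with TAC in wild type, and 6 fell and 1 rose in knockout, while of 7 macrophage markers 0 were called in wild type and 3 rose in knockout. Of 7 fibroblast markers 1 rose and 1 fell in wild type (Col1a1 and Tcf21) and 4 rose in knockout, where the median change of the 7 was 0.45. The single tested epicardial marker, Wt1, rose by 0.835 in wild type and 0.827 in knockout, and of 8 smooth muscle and pericyte markers 0 were called in wild type and 1 rose in knockout (Cspg4, 0.615). Their part in the Acvrl1 result was not tested. As a percentage of that sum, a measure chosen after seeing the data, Acvrl1 went from 3.55 ± 0.414 to 4.38 ± 0.552 in wild type (exact permutation p = 0.048) and from 3.29 ± 0.0619 to 3.98 ± 0.149 in knockout (exact permutation p = 0.036). Neither passed after Benjamini-Hochberg adjustment over the 20 exact tests made on this measure (adjusted p = 0.16 for both). In knockout the Acvrl1 ranges did not overlap (3.23 to 3.36 in sham, 3.85 to 4.24 after TAC). There 0.036 is the smallest p that 3 against 5 libraries can give, which left little room to pass over 20 tests. Bmp6 stood at 2.64% to 3.23% of the endothelial sum in wild-type TAC and at 3.88% to 4.25% in knockout TAC. These ranges do not overlap, and the exact permutation p of 0.0079 is the smallest that 5 against 5 libraries can give (adjusted p = 0.16).

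**Figure D2:**
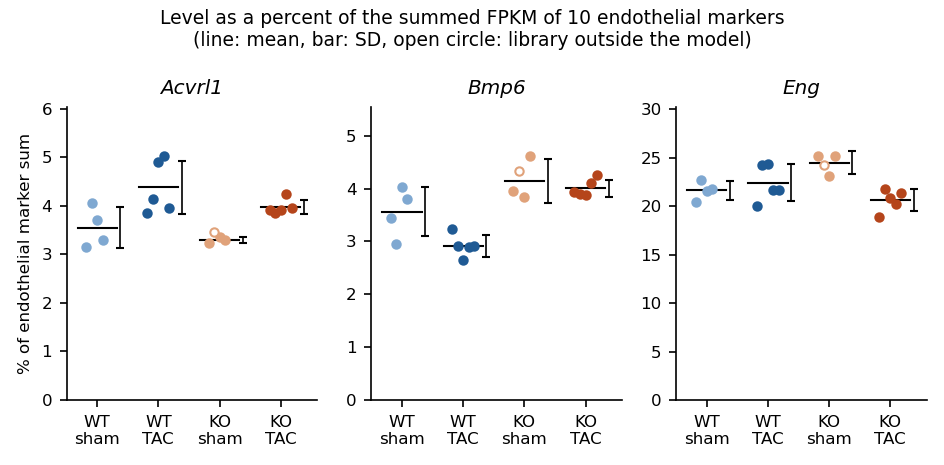
Level of each gene as a percentage of the summed FPKM of 10 endothelial markers, by library (1 point a library, horizontal line the group mean, bar the SD, open circle knockout sham replicate 2). Acvrl1 is higher in TAC than in sham on average in both genotypes, and Bmp6 is higher in each knockout TAC library than in each wild-type TAC library.

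Markers of endocardium, the inner lining of the heart, were read beside Bmp6. Of the 5 such genes, 3 could be tested. All 3 were higher in knockout than in wild type after TAC, where 6.53% of all genes tested were called higher. They were Npr3 by 0.52 ± 0.15 (adjusted p = 0.0324), Plvap by 0.98 (adjusted p = 0.0171) and Vwf by 0.69 (adjusted p = 0.0425). Vwf is also 1 of the 10 endothelial markers above, the only 1 of them called in this comparison, and part of the sum used for Bmp6. Hapln1 was under 0.1 FPKM in every library. The sum of the 5 was 6.29 to 11.9 FPKM in wild-type TAC and 13.6 to 26.5 in knockout TAC, and 9.99 to 14.2 against 14.7 to 21.5 in sham. These sums did not overlap between genotypes after TAC or in sham, and the Bmp6 values overlapped in sham only. Among single genes tested the genotypes did not overlap for 6.69% after TAC and 15.4% in sham. The part of these cells in the Bmp6 result was not tested.

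Bmpr1a (chromosome 14, 34411061 to 34503336), which encodes ALK3, a type I receptor needed in heart muscle during development, was the most abundant of the 4 signalling receptors. It measured 13.8, 14.3, 12.7 and 12.2 FPKM in wild-type sham and 15.5, 15.6, 14.5, 17 and 14.4 in wild-type TAC. In knockout sham it measured 15.6, 14.4 and 13.8 (15.1 in replicate 2), and in knockout TAC 13.8, 15.1, 14.4, 15.2 and 16.3. In wild type the lowest TAC value (14.4) lay just above the highest sham value (14.3), while in knockout the ranges overlapped. The log2 change with TAC was 0.20 ± 0.06 in wild type (1.15-fold, adjusted p = 0.0294) and 0.03 ± 0.07 in knockout (adjusted p = 0.764). The difference between the genotypes' changes was -0.17 ± 0.09 and was not called (adjusted p = 0.335). The wild-type call was lost in 6 of 25 alternatives, among them leaving out wild-type sham replicate 3 (adjusted p = 0.0848) or 4 (0.101), wild-type TAC replicate 2 (0.0557) or 4 (0.0744), and a replicate block (0.0609).

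Acvr1 (chromosome 2, 58446438 to 58566828), which encodes ALK2, the type I receptor mutated in fibrodysplasia ossificans progressiva, varied as much within groups as between them. It measured 4.25, 6.66, 4.31 and 4.76 FPKM in wild-type sham and 6.08, 4.25, 5.24, 5.9 and 4.39 in wild-type TAC. The knockout sham values were 4.69, 5.39 and 3.78 (3.61 in replicate 2), and in knockout TAC 5.29, 5.95, 5.1, 4.78 and 4.44. All groups overlapped. The largest of its 4 log2 differences was 0.13 ± 0.13, for TAC in knockout (95% interval -0.15 to 0.41, adjusted p = 0.478).

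Bmpr2 (chromosome 1, 59764279 to 59878081), the type II receptor for BMPs and the main gene of heritable pulmonary arterial hypertension, was nearly flat in wild type and higher after TAC in knockout. It measured 7.35, 7.88, 8.76 and 8.08 FPKM in wild-type sham and 8.29, 8.04, 7.92, 8.9 and 7.73 in wild-type TAC. The knockout sham libraries gave 8.18, 6.5 and 7.6 (6.89 in replicate 2), and in knockout TAC 8.82, 8.11, 8.65, 8.86 and 8.67. The knockout ranges touched, since knockout sham replicate 1 lay above knockout TAC replicate 2. The log2 change with TAC was 0.20 ± 0.07 in knockout (1.14-fold, adjusted p = 0.0333) and 0.03 ± 0.06 in wild type (adjusted p = 0.806), and their difference was not called (0.17 ± 0.09, adjusted p = 0.347). The knockout call was lost in 8 of 25 alternatives, and without knockout sham replicate 3, the lowest library, the change was 0.11 (adjusted p = 0.241). Leaving out knockout sham replicate 4 (adjusted p = 0.0528) or knockout TAC replicate 1 (0.0605), 3 (0.0526), 4 (0.0619) or 5 (0.05) also ended it.

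Eng (chromosome 2, 32646595 to 32682669), the endoglin co-receptor that partners Acvrl1 in endothelium, was by far the most abundant of the 10 genes and showed no called change. It measured 59.8, 64.1, 60.7 and 65.6 FPKM in wild-type sham and 62.8, 71.4, 69.5, 63.1 and 72.0 in wild-type TAC. For knockout sham the values were 74.8, 62.8 and 65.9 (65.6 in replicate 2), and in knockout TAC 61.6, 77.2, 71.1, 59.7 and 60.0. The log2 change with TAC was 0.11 ± 0.08 in wild type (95% interval -0.05 to 0.27, adjusted p = 0.325) and -0.04 ± 0.08 in knockout (95% interval -0.22 to 0.13, adjusted p = 0.711). As a percentage of the endothelial sum it went from 24.5 ± 1.26 to 20.6 ± 1.14 with TAC in knockout, with an exact permutation p = 0.036 that did not hold after adjustment over the 20 tests (adjusted p = 0.16). These ranges did not overlap (23.1 to 25.2 in sham, 18.9 to 21.8 after TAC), and 0.036 is the smallest p that 3 against 5 libraries can give. Eng and Acvrl1, which act in one complex, thus had different records: Acvrl1 was called with TAC in both genotypes and Eng in neither, and the difference between the 2 genes was not tested.

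**Figure D3:**
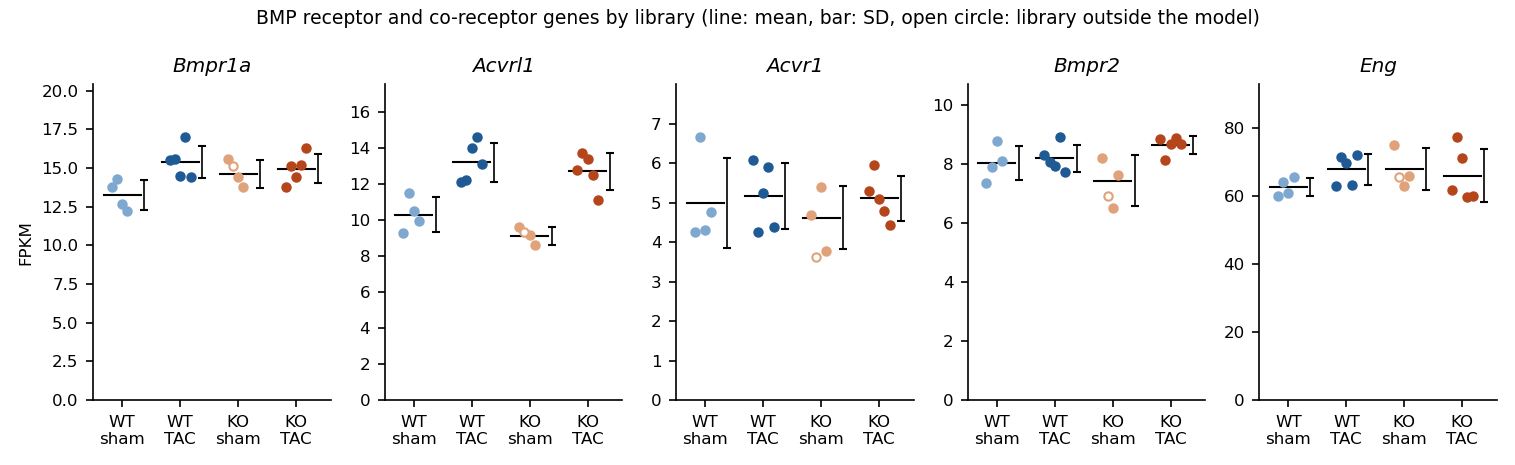
FPKM of each BMP receptor gene and of the co-receptor gene Eng in each library (1 point a library, horizontal line the group mean, bar the SD, open circle knockout sham replicate 2). The TAC points of Acvrl1 lie above the sham points of the same genotype, and the groups of Acvr1 and Eng overlap.

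Bases upstream of a receptor gene that was called, Bmpr1a, and of the abundant one that was not, Eng, are printed. They come from the 250 bases before the transcript start used in RefSeq's promoter table (GRCm38.p6), with exon bases left out. The Eng stretch reaches that start. In Bmpr1a the bases nearest to the start overlapped an annotated exon and were cut, so its stretch lies further upstream. Capitals mark matches to GGCGCC, a GC-rich element to which BMP Smads can bind, or to the Smad box CAGAC, searched on both strands (GTCTG is its reverse complement). The Bmpr1a stretch is chr14:34502688-34502796 on the minus strand (109 bases), which lies inside the gene's outer bounds given above because that start is not the outermost one, and the Eng stretch is chr2:32646345-32646594 on the plus strand (250 bases).
Bmpr1a: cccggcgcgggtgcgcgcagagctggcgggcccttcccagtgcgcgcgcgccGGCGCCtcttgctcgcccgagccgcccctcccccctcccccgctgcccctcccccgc
Eng: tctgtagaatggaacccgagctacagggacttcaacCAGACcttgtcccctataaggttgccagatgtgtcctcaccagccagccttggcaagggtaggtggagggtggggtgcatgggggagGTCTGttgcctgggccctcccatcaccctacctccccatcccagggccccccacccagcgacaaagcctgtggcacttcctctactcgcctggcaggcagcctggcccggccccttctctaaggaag
Bmpr1a holds 1 GGCGCC and no CAGAC, and Eng holds 2 CAGAC and no GGCGCC. Of 32851 windows of the same length, 3.41% held GGCGCC at 109 bases and 42.2% held CAGAC at 250 bases. The CAGAC matches of Eng are thus common for a window of that length, and a match is not evidence of binding. The Bmpr1a stretch is 84.4% G or C, and the windows were not matched for this. The 3.41% therefore does not say how rare a GGCGCC is in a stretch so rich in G and C. RefSeq windows were found for 7 of the 10 genes, and 4 had at least 50 bases free of exon.

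Counted over the list, 7 of the 10 genes were in the model and 3 (Bmp2, Bmp7 and Bmp10) fell below its filter. With TAC in wild type 2 of the 7 rose (Bmpr1a and Acvrl1) and none fell, where 21.9% of all genes tested were called and 10.7% were called higher. In both of these the TAC libraries did not overlap with sham, as for 21.7% of all genes tested. With TAC in knockout 2 of 7 rose (Bmpr2 and Acvrl1), where 38.8% of all genes were called and 21.1% were called higher. In 1 of these, Acvrl1, the groups did not overlap, as for 35.8% of all genes. Between genotypes in sham limma called 0 of 7, against 1.26% of all genes, and 0 at an unadjusted p under 0.05, against 14.2%. The groups did not overlap in 0 of 7, against 15.4%. After TAC 1 of 7 was higher in knockout (Bmp6) against 11.3% of all genes called and 6.53% called higher, and its groups did not overlap, as for 6.69% of all genes. At an unadjusted p under 0.05 there were 2 of 7, against 26.5%. For the interaction of genotype and TAC limma called 0 of 7, against 0.93% of all genes, with 1 at an unadjusted p under 0.05, against 18.8%. The shares among the 7 genes are near these backgrounds, and the counts say nothing particular about the list. The median log2 change of the 7 was 0.10 with TAC in wild type and 0.15 in knockout, where the medians of all genes were -0.01 and 0.01.

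**Figure D4:**
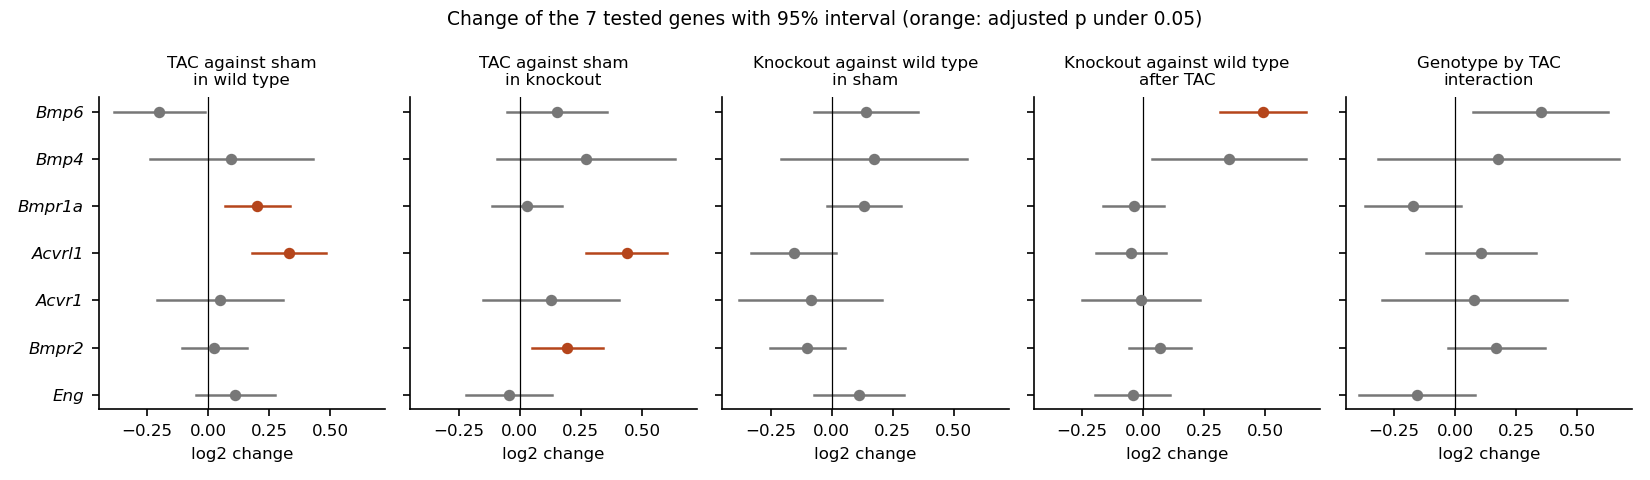
Log2 change of each gene in the model in each of the 5 comparisons (points, with 95% intervals as bars, orange where the adjusted p is under 0.05 and grey otherwise). Acvrl1 is called with TAC in both genotypes, Bmpr1a in wild type, Bmpr2 in knockout and Bmp6 between genotypes after TAC.

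The order of the levels was much the same in the 4 groups. Eng came first everywhere and Bmpr1a second, with Bmp6 and Acvrl1 next. In wild-type sham Bmp6 and Acvrl1 were the only neighbours whose ranges overlapped. In wild-type TAC Acvrl1 overlapped with Bmpr1a and lay above Bmp6 in every library, while Bmp6 overlapped with Bmpr2. In knockout sham Bmp6 lay above Acvrl1 in each library of the model, and in knockout TAC they overlapped again. Acvr1 and Bmp4 overlapped in all groups but wild-type sham. The summed ligand level was 15.0 ± 2.47 FPKM in wild-type sham, 13.5 ± 1.84 in wild-type TAC, 16.2 ± 1.51 in knockout sham and 18.5 ± 0.875 in knockout TAC. The summed level of the 4 signalling receptors was 36.6 ± 2.6, 41.9 ± 2.65, 35.8 ± 2.17 and 41.4 ± 0.888 FPKM in the same order, so the receptor sum exceeded the ligand sum in every group. Acvrl1 made up 28.1%, 31.5%, 25.5% and 30.7% of that receptor sum. These sums and shares are descriptions, with no test.

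Genes with the pattern nearest to a called gene were sought over the 17 libraries by the root mean square difference of log2 values, each centred on its own mean. For Bmp6 the nearest of 11283 genes was Stard5 (0.113, where the spread of Bmp6 itself was 0.228), followed by Fbxl20 (0.132) and Natd1 (0.139). Acvrl1 (own spread 0.213) was closest to Etv6 (0.083), to Ski (0.084) and to Ywhah (0.092). Ski is itself a repressor of Smad-driven transcription and is in the pathway lists below. Bmpr1a (own spread 0.109) had Pkn2 (0.072), Tor1aip2 (0.074) and Rnf44 (0.076) nearest, and Bmpr2 (own spread 0.1) had Dag1 (0.066), Pomt2 (0.067) and Csgalnact2 (0.067). For these last 2 receptors the distance is a large part of a spread that is itself small, so the likeness is weak.

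The rest of the pathway was read from 5 lists, whose counts stand beside the shares of all genes tested: with TAC 10.7% were called higher and 11.2% lower in wild type, and 21.1% higher and 17.7% lower in knockout. Between genotypes after TAC 6.53% were called higher and 4.78% lower. No list was tested as a whole, so a count above its share is a description. Of 8 other receptors and co-receptors 7 were tested, and none rose. In wild type 4 of 7 fell with TAC, where 11.2% of all genes did: Tgfbr3 by 0.38 (betaglycan, adjusted p = 0.00409), Neo1 by 0.25 (neogenin, a receptor of the RGM co-receptors, adjusted p = 0.0133), Acvr2b by 0.34 (a type II receptor, adjusted p = 0.0177) and Rgma by 0.28 (a BMP co-receptor, adjusted p = 0.043). The Rgma call was lost in 13 of 25 alternatives, among them the omission of any single wild-type library. The call of Acvr2b was lost without wild-type sham replicate 1 (adjusted p = 0.0521) or 4 (0.059) and that of Neo1 without wild-type sham replicate 2 (0.0511). Acvr2b means were 1.11 ± 0.149 FPKM in wild-type sham, 0.662 ± 0.132 in wild-type TAC, 1.16 ± 0.257 in knockout sham and 0.583 ± 0.152 in knockout TAC. It entered the model mainly through the sham groups, where it is high, so its calls in both genotypes are descriptions only. In knockout 5 of 7 fell, where 17.7% of all genes did, led by Rgma by 0.71 (from 13.1 ± 3.06 to 7.5 ± 0.73 FPKM, adjusted p = 3.48e-05), Tgfbr3 by 0.52 (adjusted p = 0.000241), Hjv by 0.52 (hemojuvelin, the co-receptor of iron sensing, from 124 ± 8.25 to 86.8 ± 12.3 FPKM, adjusted p = 0.000617) and Neo1 by 0.35 (adjusted p = 0.00106). The median change of the 7 was -0.25 in wild type and -0.45 in knockout. Between genotypes none was called, the nearest being Rgma (0.39, adjusted p = 0.0919, but called at 0.0298 with all 18 libraries and at 0.0128 without knockout sham replicate 4) and Hjv (0.27, adjusted p = 0.259) in sham, and Neo1 (-0.14, adjusted p = 0.175) and Hjv (-0.15, adjusted p = 0.312) after TAC.

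Extracellular modulators and ligand-processing proteases were mostly too low to test, with 9 of 20 in the model. In wild type 4 of the 9 rose with TAC and none fell: Fstl1 by 1.18 (a follistatin-like glycoprotein, adjusted p = 0.00105), Bmp1 by 0.28 (which despite its name is a protease that cleaves chordin and procollagen, adjusted p = 0.00659), Fstl3 by 1.22 (an activin antagonist, adjusted p = 0.00731) and Nbl1 by 0.69 (a BMP antagonist, adjusted p = 0.0156, and 0.053 without wild-type sham replicate 1). In knockout the same 4 genes rose, Fstl1 by 2.04 (adjusted p = 6.21e-06), Nbl1 by 1.36 (adjusted p = 7.85e-05), Fstl3 by 1.71 (adjusted p = 0.000522) and Bmp1 by 0.36 (adjusted p = 0.000731), and Bmper, a BMP-binding regulator of vessels, fell by 0.46 (adjusted p = 0.0194). Fstl1 means were 14.9 ± 2.04 FPKM in wild-type sham, 35.9 ± 10.3 in wild-type TAC, 14.4 ± 1.41 in knockout sham and 63.7 ± 16.8 in knockout TAC. After TAC Fstl1 was higher in knockout by 0.81 (adjusted p = 0.0171) and Bmp1 by 0.24 (adjusted p = 0.0232). Both calls were lost without knockout TAC replicate 1 (adjusted p = 0.0506 and 0.0703), and that of Bmp1 also without wild-type TAC replicate 5 (0.0597) or knockout TAC replicate 3 (0.0544) or 4 (0.0504).

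Signal transducers and their inhibitors were nearly all expressed, with 11 of 12 tested. In wild type 4 of the 11 rose with TAC, where 10.7% of all genes did, and none fell: Smurf2 by 0.30 (a ubiquitin ligase for Smads and receptors, adjusted p = 0.00153), Bambi by 0.61 (a decoy receptor, adjusted p = 0.00314), Fkbp1a by 0.21 (which holds type I receptors inactive, adjusted p = 0.00442) and Ski by 0.26 (adjusted p = 0.0259). The Ski call was lost without wild-type sham replicate 1, 3 or 4 or wild-type TAC replicate 3 or 4 (adjusted p between 0.0546 and 0.0825). In knockout 7 of the 11 rose, where 21.1% of all genes did, and none fell, led by Smurf2 by 0.46 (adjusted p = 2.25e-05), Fkbp1a by 0.34 (adjusted p = 5.12e-05), Smad1 by 0.64 (from 3.13 ± 0.104 to 5.49 ± 0.841 FPKM, adjusted p = 6.83e-05) and Bambi by 0.76 (adjusted p = 0.00043). After TAC only Smad6, an inhibitory Smad that BMPs induce, differed between genotypes, by 0.35 (adjusted p = 0.0258), a call lost without wild-type TAC replicate 2 (0.0591) or 4 (0.0552) or knockout TAC replicate 1 (0.0521). In sham none was called, the nearest being Smad6 (0.47, adjusted p = 0.0552) and Smurf2 (-0.13, adjusted p = 0.39). Smad6 was called there with all 18 libraries (0.0246), with median-ratio scaling (0.0472), with only the groups compared (0.0371) and without knockout TAC replicate 1 (0.00836) or 5 (0.0491).

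Of 11 genes listed as BMP targets 8 were tested, of which 1 was called with TAC in wild type and 2 in knockout, beside 21.9% and 38.8% of all genes. The gene that fell in both was Slc40a1, the iron exporter ferroportin, by 0.72 (adjusted p = 0.00368) and by 1.09 (adjusted p = 8.68e-05). Slc40a1 is tied to BMP6 through hepcidin, which acts on the protein, and is not a classical Smad target. The 1 call in wild type and 1 of the 2 in knockout are thus not calls of such a target. Atoh8 rose with TAC in knockout by 0.43 (adjusted p = 0.0114, and 0.0693 without knockout sham replicate 1), and after TAC it was higher in knockout than in wild type by 0.37 (adjusted p = 0.0389). That genotype call was lost without wild-type TAC replicate 2, 4 or 5 or knockout TAC replicate 2, 4 or 5 (adjusted p between 0.0635 and 0.0842). Id1 and Id3, the most used readouts of BMP Smad activity, were not called in any comparison, with means of 50.5, 60.3, 49.1 and 55.6 FPKM for Id1 and of 39.1, 44.7, 36.4 and 46.2 for Id3 in the group order used above. In sham no target was called between genotypes, the nearest being Atoh8 (0.17, adjusted p = 0.62) and Id2 (0.22, adjusted p = 0.803).

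Of 10 other ligands of the family only Gdf6 and Gdf10 were tested. Gdf6, known from joint and eye development, rose with TAC in knockout by 0.90 (adjusted p = 0.00154), from a mean of 0.182 ± 0.167 to 1.27 ± 0.659 FPKM, and after TAC it was higher in knockout than in wild type by 0.58 (adjusted p = 0.0369). Its wild-type means were 0.147 ± 0.0681 FPKM in sham and 0.484 ± 0.284 after TAC. Knockout TAC was thus the only group with a mean above the filter's 1 FPKM. Gdf6 entered the model mainly through the group where it is high, so its calls are descriptions only. In wild type neither Gdf6 (0.35, adjusted p = 0.18) nor Gdf10 (-0.12, adjusted p = 0.653) was called with TAC. In sham neither differed between genotypes by the test (Gdf10 0.13, adjusted p = 0.814, and Gdf6 0.04, adjusted p = 0.958). With the Ndufb4c split as a term, the calls between genotypes after TAC were lost for Gdf6 (adjusted p = 0.129), Bmp1 (0.134), Smad6 (0.527) and Atoh8 (0.292), and kept for Fstl1 (1.40, adjusted p = 0.0277). The Gdf6 call between genotypes was also lost without wild-type TAC replicate 2 (0.0501), 4 (0.09) or 5 (0.0891). It was lost as well with a pseudocount of 0.1 (0.0844), with no filter on low values (0.0699) and with only the groups compared (0.0839).

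None of the tested genes of these lists had a called interaction of genotype and TAC. The nearest in their lists were Fstl1 (0.86, adjusted p = 0.152) and Nbl1 (0.67, adjusted p = 0.209), Smad1 (0.42, adjusted p = 0.107) and Fkbp1a (0.13, adjusted p = 0.319), and Rgma (-0.43, adjusted p = 0.11) and Hjv (-0.42, adjusted p = 0.12). Further off were Gdf6 (0.55, adjusted p = 0.279), Gdf10 (-0.19, adjusted p = 0.712), Slc40a1 (-0.37, adjusted p = 0.414) and Atoh8 (0.20, adjusted p = 0.563). An interaction was called in some alternatives: for Hjv (-0.42, adjusted p = 0.0212) and Fstl1 (0.85, adjusted p = 0.0454) without both TAC libraries nearest to sham, for Hjv without knockout TAC replicate 2 (-0.49, adjusted p = 0.0257) and for Rgma without knockout sham replicate 4 (-0.59, adjusted p = 0.0413). In sham Kcp (-0.28, adjusted p = 0.301) and Bmp1 (0.15, adjusted p = 0.381) were the modulators nearest to a call between genotypes.

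**Figure D5:**
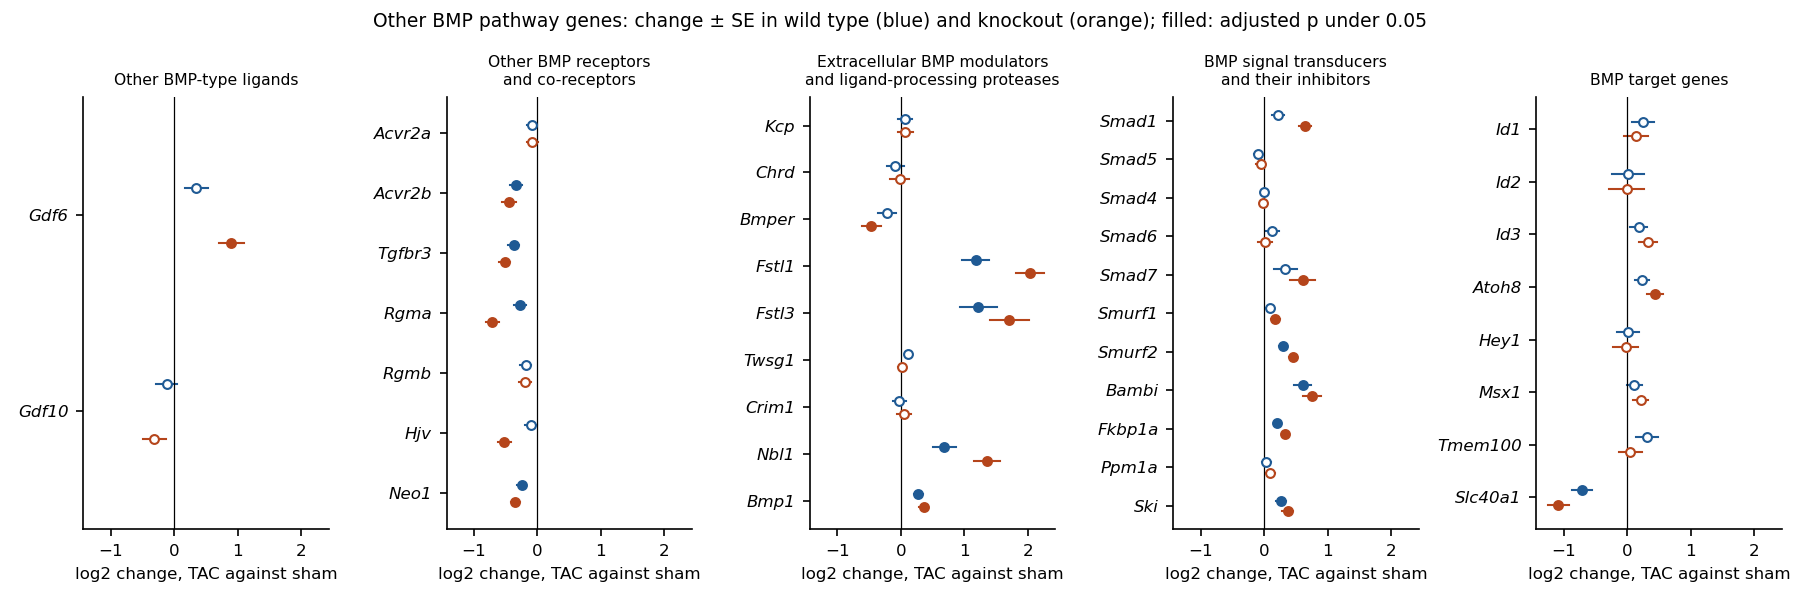
Log2 change with TAC of the tested genes of the other BMP pathway lists in wild type (blue) and knockout (orange), with the SE as bars and filled points where the adjusted p is under 0.05. The other receptors and co-receptors that are called lie below 0 and the called transducers lie above 0, in both genotypes.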

How the data were processed

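RNA of 18 heart libraries was prepared with the SMARTER mRNA-Seq kit from 1.3 ug of total RNA, per the labels' protocols. The deposited values are taken as FPKM, inferred from the values, since no label names the unit; RPKM cannot be told apart from it. The build is mm10, per the submitters' processing notes; the aligner and counter: not given in the sources used here. Depth is unknown, so no counting interval is given.

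The design named a count test first and FPKM as the fallback, which was used. A linear model of the 4 groups was fitted to log2(FPKM + 1) with limma 3.58.1 in R 4.3.3 (intensity trend, robust moderation) on the 11937 of 34714 genes that reached 1 FPKM in 3 libraries or more, over 17 libraries and 5 contrasts, at a Benjamini-Hochberg threshold of 0.05. Genes below the filter had 2-sided exact permutation tests. All symbols matched the RefSeq annotation of GRCm38, which gave positions and promoter bases. The fit was tested on simulated data. The 10 genes and the pathway and marker lists were chosen with earlier results of these data known. From each pathway list the text names, for each comparison, up to 4 called genes with the smallest adjusted p, or the 2 nearest where none was called; the 3 genes most like each called one are named by distance. Bmper, Id1, Id3 and the markers were named after their values were seen. No label says whether the shared replicate numbers pair the samples, and the main model did not pair them. Alternatives were the pseudocount, the filter, the scaling, a replicate block, the Ndufb4c split as a term, all 18 libraries, each library left out, and a fold threshold.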

Additional observations from a re-analysis of the deposited data

Results flagged for a closer look

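Of 28 groups of 4 or 5 libraries checked, 3 held a library whose gap to the next was large for the range of its group, where chance alone flags about 1 in 20. Wild-type sham replicate 2 had the lowest Bmp4, 1.92 FPKM, with 3.95 FPKM next, and the gap was 0.923 of the group's range. Knockout TAC replicate 2 had the lowest Bmpr2 of its group, 8.11 FPKM, with a gap of 0.723 of the range. Wild-type TAC replicate 1 was the single library with Bmp10 above 0, at 0.158 FPKM, so its gap was the whole range (1.0).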

How the results depend on the processing

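Acvrl1 stayed called with TAC in all 25 alternatives in each genotype (0.29 to 0.38 in wild type, 0.40 to 0.48 in knockout), apart from the fold threshold, and Bmp6 between genotypes after TAC in 24 of 25 (0.37 to 0.54), lost with the Ndufb4c split as a term. The pairing could not be read from the numbers: of 15 same-numbered pairs 2 had deviations correlated over 0.1 (-0.238 to 0.157). The replicate block moved the called members with TAC to 1 in wild type (Bmpr1a lost) and to 3 in knockout (Bmp4 gained, 0.38, adjusted p = 0.0465), the called interactions over all genes from 111 to 345, Gdf6 between genotypes in sham to -0.02 and the Kcp interaction to -0.02.

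With no filter on low values 1 member was called with TAC in wild type, 1 in knockout, and 16 interactions over all genes; with only the groups compared, 1 member with TAC in knockout and 814 genes (not 1350) between genotypes after TAC. With all 18 libraries 227 genes (not 151) differed between genotypes in sham and 300 interactions were called. The Ndufb4c split as a term left 12 genes between genotypes in sham, 243 genes and 0 members after TAC, and 17 interactions. It turned Bmp6 (-0.01), Acvr1 (0.14), Gdf10 (-0.11) and Hjv (-0.10) in sham, Bmpr1a (0.05) and Acvr1 (0.18) after TAC, and the Kcp interaction (-0.01), all uncalled. In sham the split and genotype coincide. The sham estimates with this term therefore rest on wild-type TAC replicate 5, the only wild-type library on the knockout side of the split. Median-ratio scaling gave 192 interactions and a Kcp interaction of -0.0033, and a pseudocount of 0.1 gave Gdf6 -0.0034 in sham. Without both TAC libraries nearest to sham there were 460 interactions, with -0.02 for Acvr1 and -0.04 for Kcp, and Hjv (-0.42, adjusted p = 0.0212) and Fstl1 (0.85, adjusted p = 0.0454) became called. Asking also for a log2 change of at least 1 left 115 genes with TAC in wild type, 428 in knockout, 24 between genotypes in sham, 62 after TAC and 14 interactions, and 0 members in each. The cause of these shifts was not tested.

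Leaving out 1 library at a time gave 1981 to 2748 genes and 1 to 3 members with TAC in wild type, 3720 to 4724 genes and 1 to 2 members with TAC in knockout, 50 to 169 genes and 0 members between genotypes in sham, 663 to 1833 genes and 1 member after TAC, and 7 to 597 interactions with 0 members. It turned only uncalled values. With TAC in wild type these were Bmp4 (-0.10 to 0.19), Bmpr2 (-0.01 to 0.06), Acvr1 (-0.01 to 0.17), Gdf10 (-0.20 to 0.01) and Bmp2 (-0.04 to 0.06), and in knockout Eng (-0.10 to 0.03), Bmpr1a (-0.01 to 0.08) and Bmp2 (-0.01 to 0.07). Between genotypes in sham they were Bmp4 (-0.02 to 0.28), Acvr1 (-0.18 to 0.04), Gdf6 (-0.05 to 0.15), Id2 (-0.02 to 0.48) and Bmp2 (-0.09 to 0.01), after TAC Acvr1 (-0.06 to 0.04) and Bmp2 (-0.06 to 0.02), and for the interaction Acvr1 (-0.05 to 0.18) and Kcp (-0.08 to 0.06). The exact p of Bmp7 with TAC in wild type rose above 0.05 in 8 of 9 such omissions (0.057 to 0.11). Depth is unknown, so whether Bmp2, Bmp7 and Bmp10 are limited by it cannot be read from these values.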
